A study of Drosophila melanogaster with 4 samples.

Results

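Along the X chromosome of adult Drosophila melanogaster heads, clusters of the histone deacetylase RPD3 were mapped by chromatin immunoprecipitation with sequencing (ChIP-seq), and 1047 of the 7386 enriched clusters of the authors' combined list are described here. They are the clusters on the X that were narrower than 6000 bp and whose midpoints lay from 1500001 to 20422827 (FlyBase release 5 coordinates, 1-based). This 18.9 Mb segment leaves out 1.5 Mb at the telomere end and 2 Mb at the centromere end of an arm of 22422827 bp. A further 99 clusters of the segment were 6000 bp or wider and served only as neighbours, so the segment held 1146 clusters of any width.

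The flies were wild-type Oregon-R flies of the stage given as Mixed Adult, raised in population cages on a 22-day cycle. Nuclei came from sieved heads, and the antibody was RPD3-Q3451. The series holds 2 RPD3 ChIP samples (replicates 1 and 2) and 2 inputs, 1 for each. The labels give neither the sex of the flies nor whether the replicates came from separate populations, so the spread between them may be technical. All samples carry the same genotype and no treatment, and there is no contrast between groups. The values below are therefore descriptions of 2 lists and their combined list, with no test over clusters.

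RPD3 is the fly counterpart of mammalian HDAC1. It removes acetyl groups from histone tails, and it has no DNA-binding domain of its own but is brought to chromatin within corepressor complexes such as Sin3, NuRD and CoREST. The fly X is also the chromosome of dosage compensation, in which the MSL complex of males acetylates histone H4 over active X genes. The clusters are given by position alone, since no release 5 gene annotation was used here to name genes.

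The X clusters, all narrower than 6000 bp by the rule, covered 14.5% of the segment (2.74 Mb) at 55.3 clusters per Mb. The 99 wider clusters, left out by the rule, covered a further 4.24%. The median width of the X clusters was 2381 bp, and the middle 80% of them lay between 1148 and 4459 bp. The narrowest was 1001 bp wide, the lower limit of the whole combined list, and the widest was 5987 bp. The authors' score, which the headers do not define and which behaves as the log2 of a ratio, had a median of 0.61 and ran from 0.12 to 2.95. The same rule applied to each replicate gave 809 clusters in replicate 1 and 838 in replicate 2, or 43.5 ± 1.08 per Mb (SD, n = 2). They covered 12.2% of the segment in each replicate, with median widths of 2635 and 2467 bp. Under the width limit, the number and covered share of X clusters thus differed little between the replicates, while the combined list held more and narrower ones. Clusters of 6000 bp or wider numbered 76 in replicate 1 and 52 in replicate 2, and the combined list had more of these too.

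The width limit did not fall at a break in the data. The clusters just inside it lay from 13177752 to 13183738 (5987 bp, score 1.61) and from 8481828 to 8487776 (5949 bp, score 1.39). Those just outside it lay from 9085638 to 9091638 (6001 bp, score 1.36) and from 9576916 to 9582938 (6023 bp, score 1.45). All 4 overlapped a cluster in both replicates.

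The first question was how many of the X clusters were found in each replicate. Of the 1047, 597 overlapped clusters of both replicates by at least 1 bp, or 57.0% (95% exact Clopper-Pearson interval 54.0 to 60.0). Over the whole combined list this share was 61%, and over its clusters narrower than 6000 bp it was 57.7%, so the X share lay at the background for its width. Replicate 1 alone accounted for 126 X clusters and replicate 2 alone for 131. Neither replicate had a counterpart for 193, or 18.4%, where the background under the width limit was 17.2%. These intervals cover counting error over clusters only, and clusters are not independent replicates.

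Recurrence rose steeply with width. None of the 289 X clusters from 1000 to 1749 bp wide overlapped both replicates (exact interval 0 to 1.27%). The share was 20.0% (interval 12.3 to 29.8) for the 90 clusters from 1750 to 1999 bp, 65.2% (54.6 to 74.9) for the 92 from 2000 to 2249 bp and 88.4% (78.4 to 94.9) for the 69 from 2750 to 2999 bp. It reached 93.1% from 3000 to 3999 bp and 96.6% from 4000 to 4999 bp, and all 61 clusters of 5000 bp or wider recurred. Summed over both sides of 2000 bp, 18 of 379 narrow clusters (4.75%) and 579 of 668 wider ones (86.7%) overlapped both lists. Over the whole combined list the shares were 6.21% and 86.9%, so the same step was present over the whole list. The narrowest replicate cluster was 1301 bp wide, and 167 X clusters fell under that width. A wide cluster also meets the overlap rule more easily.

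In the combined list, the median score rose with width above 2000 bp and not below it. The median score was 0.46 for X clusters from 1000 to 1249 bp, fell to 0.37 from 1500 to 1749 bp, and then climbed to 0.54 from 2000 to 2249 bp and 0.90 from 2750 to 2999 bp. From 3000 bp on it rose more slowly, to 1.18 for clusters of 5000 bp or wider. Across all X clusters Spearman's rho of score and width was 0.738, and within the replicates it was 0.727 and 0.788. In the replicates, too, the median score stayed flat below 2000 bp, between 0.57 and 0.59 in replicate 1 and between 0.55 and 0.59 in replicate 2. It was 0.70 and 0.79 in the next class of 250 bp and 1.22 in each at 2750 to 2999 bp. Above that the rise was not steady. In replicate 1 the median was 1.15 at 3000 to 3999 bp, lower again at 4000 to 4999 bp and 1.26 at 5000 to 5999 bp, and in replicate 2 it was 1.31 in the first pair of these classes and 1.42 in the last.

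**Figure D1:**
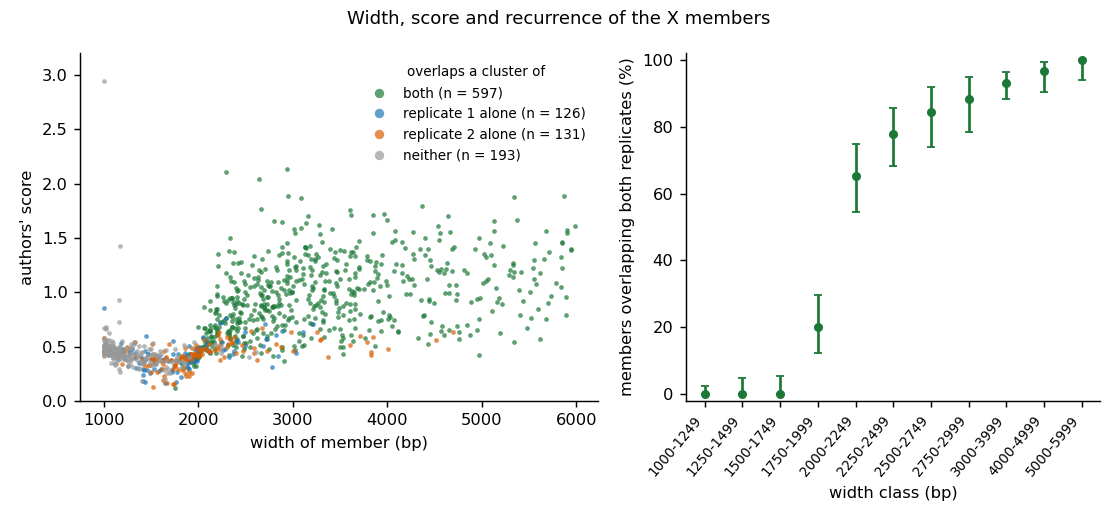
Left: width in bp against the authors' score for the 1047 X clusters, coloured by the replicate lists they overlap. Right: percent of X clusters overlapping both replicates by width class, with 95% exact intervals. Clusters found in neither replicate (n = 193) gather near 1000 to 2000 bp at scores around 0.44, and clusters found in both (n = 597) fill the field above 2000 bp.

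X clusters seen in both replicates had medians of 3111 bp in width and 0.94 in score. Those of replicate 1 alone had medians of 1729 bp and 0.43, and those of replicate 2 alone of 1929 bp and 0.43. Clusters found in neither had medians of 1167 bp and 0.44. The last 3 classes differed in width and had nearly the same score. Of the 262 X clusters that scored 1 or more, 260 recurred in both lists. This share was not computed over the whole combined list, so it is not a trait of the X. The combined score also comes from the same samples as the replicate lists.

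Some sites could be matched between the replicates through the combined list. For 504 X clusters, exactly 1 cluster of each replicate matched and matched nothing else. Both had to overlap the same combined cluster, which in itself keeps their midpoints close. The values below hold for these selected sites only. Their midpoints in replicates 1 and 2 lay a median of 185 bp apart, and 90% lay within 662 bp. Median widths were 2778 bp in replicate 1, 2645 bp in replicate 2 and 3032 bp in the combined list. Across these sites, Spearman's rho between the replicates was 0.648 for score and 0.606 for width (Pearson's r 0.678 and 0.630). Conversely, 740 of the 809 replicate 1 clusters (91.5%) and 834 of the 838 replicate 2 clusters (99.5%) overlapped the combined list. Of the replicate 1 clusters 79.1% overlapped replicate 2, and of the replicate 2 clusters 83.4% overlapped replicate 1. Replicate 1 held more X clusters that the combined list left out.

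The highest-scoring X clusters seen in both replicates stood at separate places on the arm. The first lay from 15031986 to 15034922 (2937 bp) with a score of 2.14, and its counterpart scored highest among the clusters under 6000 bp of each replicate, at 2.19 and 2.26. It stood alone, with 45795 bp to its left neighbour and 33565 bp to its right one. The next lay from 15355494 to 15357782 (2289 bp, score 2.11), and its replicate scores were 2.02 (rank 2) and 1.82 (rank 32). The third lay from 18736454 to 18739098 (2645 bp, score 2.04) and ranked 3 in both replicates. The others lay from 9551290 to 9554244 (score 1.89) and from 8451368 to 8457238 (score 1.89). The fourth scored 1.87 and 2.02 in the replicates and the fifth 1.84 and 2.04, so their order differed between the replicates, as did the place of the second. The combined list summarises the replicates, so high scores there are no separate support.

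The 3 lowest-scoring clusters that still recurred were all under 2000 bp. They lay from 13339248 to 13341006 (score 0.12), from 17589058 to 17590894 (score 0.31) and from 17613504 to 17615460 (score 0.32). The first was also the lowest-scoring of all X clusters, and its replicate scores were 0.19 and 0.34. It formed the left edge of a cluster-free stretch of 115567 bp.

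The second question was how the clusters were spaced. Gaps were measured from edge to edge between neighbouring clusters of any width, so that the width limit opened no gap. Most clusters had a close neighbour and a few gaps were very long. The median gap was 4767 bp and the mean was 13405 bp. Of 1145 gaps, 129 (11.3%) were under 500 bp and 587 (51.3%) were under 5000 bp, while 76 gaps of 50 kb or more took up 34.3% of the segment. The SD of the gaps was 1.76 times their mean. The replicates, with fewer clusters, had median gaps of 5469 and 6117 bp and SDs of 1.85 and 1.69 times the mean. They differed at the short end, where 13.1% of replicate 1 gaps and 6.52% of replicate 2 gaps were under 500 bp.

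**Figure D2:**
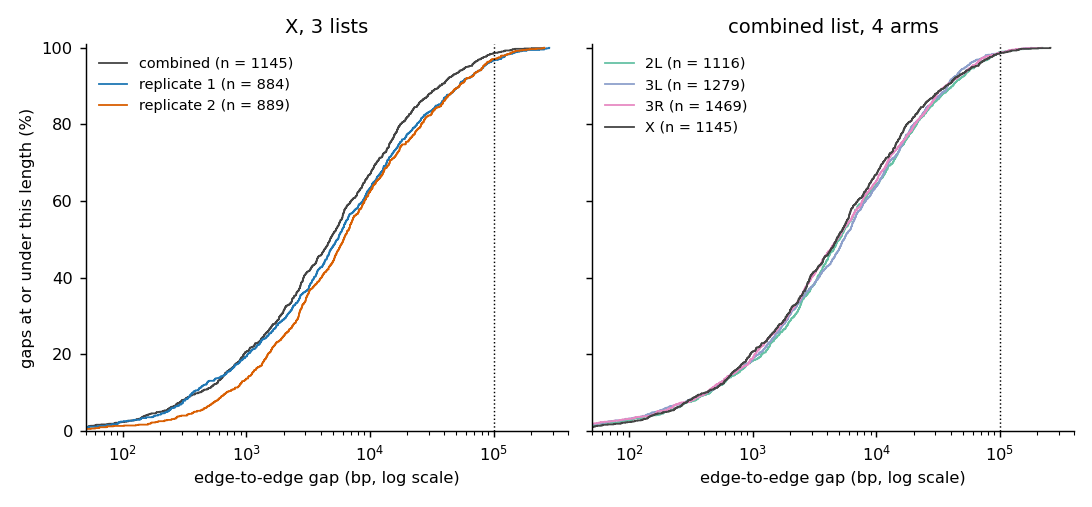
Cumulative percent of gaps at or under a given length, on a log axis in bp, for the X segment in the combined list and both replicates (left) and for 4 arm segments of the combined list (right). The dotted line marks 100 kb. On the left, the replicate 2 curve lies lowest below 1000 bp. On the right, the 4 arms nearly coincide.

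Neighbouring gaps were weakly alike and neighbouring scores were not. The Spearman's rho of a gap with the next gap was 0.145 in the combined list, 0.128 in replicate 1 and 0.155 in replicate 2. For the score of a cluster with that of its neighbour it was 0.04, 0.03 and -0.01. These are correlations along 1 arm, and the 3 lists share their libraries.

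The most isolated X clusters were narrower and scored lower than crowded ones. Over classes of growing distance to the nearest neighbour, median width fell at each step in the combined list, from 2615 to 1985 bp. It also did so in replicate 1, from 2916 to 2019 bp. In replicate 2 it fell from 2563 to 2159 bp, but not at each step. Median score had no steady trend. For the 58 with no neighbour within 20 kb, the medians were 1985 bp in width and 0.53 in score. The 324 whose nearest neighbour was 500 to 1999 bp away had medians of 2572 bp and 0.68. Between these 2 classes the replicates gave the same direction, with 0.69 (64 isolated clusters) against 0.90 (205) in replicate 1 and 0.74 (82) against 0.89 (251) in replicate 2. The median scores of the classes between did not follow in order. In replicate 2, clusters 2 to 5 kb and 5 to 20 kb from a neighbour had medians of 1.00 and 0.95, and in the combined list those 5 to 20 kb away had 0.52. Among X clusters of 2000 bp or wider, recurrence did not fall steadily with isolation. Of the 27 isolated ones, 25 overlapped both replicates (92.6%, interval 75.7 to 99.1). So did 105 of the 128 that were 5 to 20 kb from a neighbour (82.0%) and 449 of the 513 with one under 5 kb away (87.5%). Median widths of these classes still differed, at 2591, 2799 and 3093 bp.

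Of the 99 clusters of 6000 bp or wider, 76 (76.8%) had a narrower neighbour within 5 kb. This was close to the general share, since 769 of the 1047 X clusters (73.4%) had a neighbour of any width that near. The 103 X clusters beside them had a median score of 0.61 and a median width of 2471 bp, against 0.61 and 2375 bp for the other 944. Both replicates held 61 of the 103 (59.2%) and 536 of the 944 (56.8%). Nearness to a broad domain thus went with almost no difference in score, width or recurrence.

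The third question was where the arm was empty. Deserts were defined as stretches of 100 kb or more between neighbouring clusters of any width in the combined list. There were 16, and together they took up 2.26 Mb, or 11.9% of the segment. No cluster of either replicate lay inside any of them, and the stretches free of clusters in all 3 lists kept at least 101423 bp in each. The combined list summarises the same samples, so the replicates are no independent support here.

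The longest desert ran from 14217709 to 14473583 (255875 bp). Only 25397 bp separated it from the desert that ran from 14498981 to 14642339 (143359 bp). The 4 clusters between them all recurred in both replicates, and the 2 outer ones scored 1.20 and 1.25. Of the 424631 bp from the start of the first to the end of the second desert, 94.0% was cluster-free. The second longest desert ran from 18825311 to 19029213 (203903 bp), the third from 12098971 to 12276017 (177047 bp) and the fourth from 6268325 to 6416411 (148087 bp). The fourth was framed by strong clusters with scores of 1.20 and 1.23, and the second by weak ones with 0.27 and 0.40. A further pair of deserts, from 7219749 to 7358531 and from 7360047 to 7501619, was parted by 1 cluster of 1515 bp (score 0.52). Replicate 2 had a cluster there and replicate 1 did not.

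Over all 16 deserts, the 32 flanking positions, with clusters of any width, had a median of 2301 bp in cluster width and 0.63 in score. Clusters of any width on the segment had medians of 2521 bp and 0.66. The X clusters under 6000 bp had 2381 bp and 0.61.

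The replicates can be compared with each other without the combined list. Replicate 1 had 29 deserts by the same definition and replicate 2 had 26. They covered 4.52 and 3.83 Mb, and 3.45 Mb lay in deserts of both, which was 76.4% of the replicate 1 and 90.2% of the replicate 2 desert sequence. Inside replicate 1 deserts lay 17 clusters of replicate 2, with medians of 1696 bp and 0.57 for width and score. Inside replicate 2 deserts lay 8 clusters of replicate 1, with medians of 1620 bp and 0.60. The clusters that broke up a desert of the other replicate were thus narrow and low in score. The combined list had 33 deserts when only clusters of 2000 bp or wider were counted and 43 in its better-scoring 50%. Leaving out clusters of any kind lengthens gaps, so these 2 numbers do not single out narrow or weak ones.

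**Figure D3:**
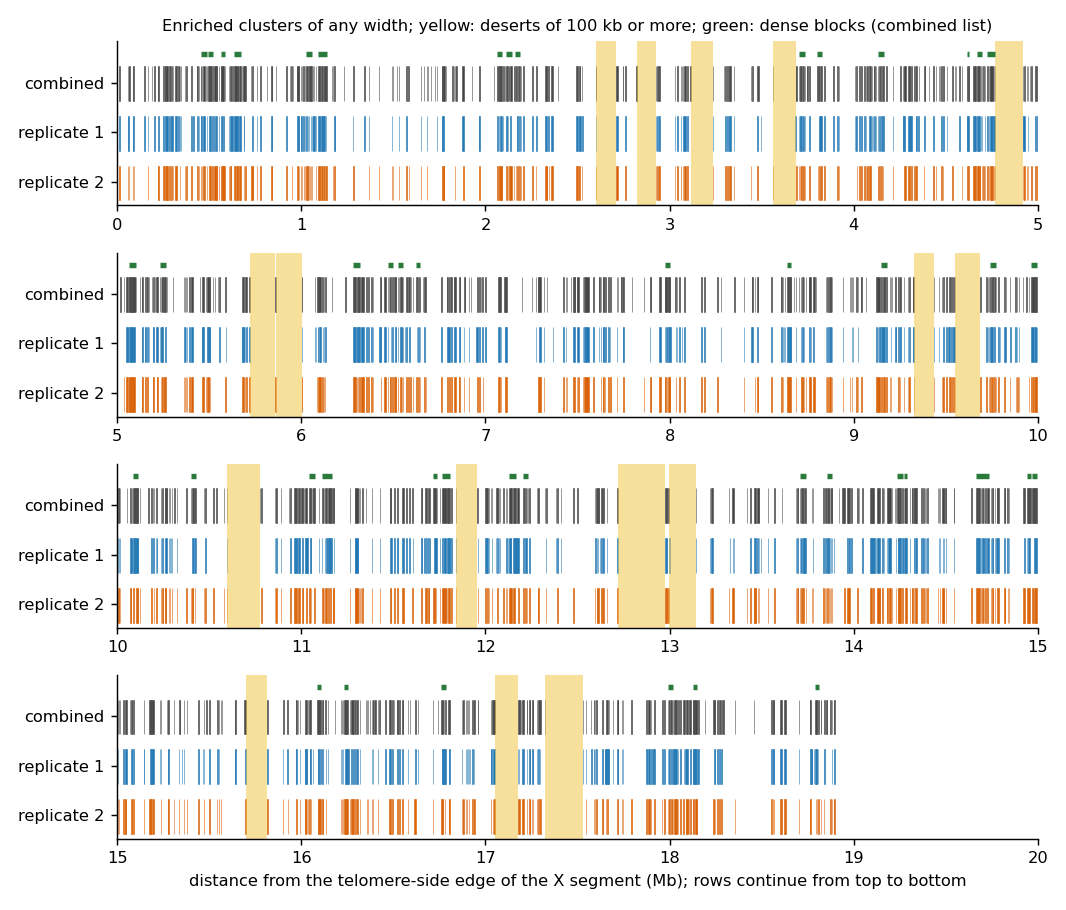
Enriched clusters of any width along the X segment in the combined list, replicate 1 and replicate 2, in 4 rows of 5 Mb from the telomere side. Yellow bands mark the 16 deserts and green bars the 47 dense blocks of the combined list. The deserts are blank in all 3 lists, and the longest pair stands close together near 13 Mb from the telomere-side edge.

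Dense blocks were defined as runs of at least 5 clusters of any width, each under 5 kb from the next. There were 47, with 288 clusters, or 25.1% of the clusters in 7.53% of the segment. Their median span was 29149 bp. The definition itself picks crowded clusters. By the same definition, the share of clusters in blocks was 23.4% on 2L, 21.5% on 3L, 23.5% on 3R and 31.0% on 2R. Blocks held 258 of the X clusters, with a median score of 0.69 and a median width of 2730 bp, against 0.58 and 2311 bp for the 789 outside. Both replicates held 64.0% (interval 57.8 to 69.8) of the first and 54.8% (51.2 to 58.3) of the second. Recurrence rose with width, and these shares were not compared at equal width. Of the wide clusters, 30 of 99 lay in blocks.

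The block with most clusters ran from 16163862 to 16231824 (67963 bp). Its 10 clusters covered 64.7% of it, their median score was 1.05, and each replicate had 10 clusters there too. Next came 9 clusters from 2590930 to 2638494 (47565 bp). None of these was 6000 bp or wider, 8 recurred in both replicates, and each replicate had 9 clusters. The 9 clusters from 6563214 to 6602974 (39761 bp) were less stable, with 5 clusters in replicate 1 and 6 in replicate 2. Of 3 blocks of 8 clusters, that from 6730386 to 6763874 had 6 in each replicate, that from 12612496 to 12664546 had 9 in replicate 1 and 7 in replicate 2, and that from 15205170 to 15240380 had 8 and 6. The first pair of blocks was thus equally crowded in all lists, while the number of clusters in the other 4 varied between lists.

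Block numbers differed between lists and fell when clusters were left out. Replicate 1 had 27 blocks, of which 23 overlapped a combined block, and replicate 2 had 23, of which 18 did. Only 13 blocks were left when clusters under 2000 bp were dropped and 7 in the better-scoring 50%. Leaving out clusters of any kind breaks up blocks, so these numbers do not single out narrow or weak ones.

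The fourth question was how density, width and score changed along the arm. In 37 full windows of 500 kb the number of X clusters ran from 11 to 42, with a median of 29. The variance of these numbers was 2.97 times their mean, and it was 2.63 times in replicate 1 and 2.98 times in replicate 2. A window's number was not related to that of the next window (Spearman's rho -0.074).

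The densest windows were 6500001 to 7000000 with 42 X clusters, 17500001 to 18000000 with 41 and 5500001 to 6000000 with 40. In replicate 1 they had 32, 35 and 31 clusters and in replicate 2 they had 33, 38 and 27. The second was the densest window in replicate 2 and tied with 1 other window for densest in replicate 1, and the third ranked 4 in replicate 1 and 11 in replicate 2. The sparsest windows were 14500001 to 15000000 with 11, 7000001 to 7500000 with 12 and 14000001 to 14500000 with 13. These had 11, 11 and 12 clusters in replicate 1 and 12, 8 and 13 in replicate 2. The densest and a sparsest window were direct neighbours, on both sides of 7000000.

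Sparse and dense windows largely recurred between the replicates. The 10 sparsest windows were the same 10 in replicates 1 and 2. Each had at most 13 clusters in each replicate, and the next window had 14 in replicate 1 and 17 in replicate 2. They lay at 3.0 to 3.5, 4.0 to 5.0, 7.0 to 7.5, 8.5 to 9.0, 9.5 to 10.0, 12.0 to 12.5, 14.0 to 15.0 and 17.0 to 17.5 Mb. At the dense end, 5 windows tied at 26 clusters for the tenth place in replicate 1. With these ties counted, 8 of the 10 densest windows of replicate 2 were among the 14 densest of replicate 1. Across the 37 windows, Spearman's rho between the replicates was 0.821 for cluster number (Pearson's r 0.890) and 0.884 for covered length. The replicates have most of their clusters in common, so much of this likeness comes from the same sites.

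**Figure D4:**
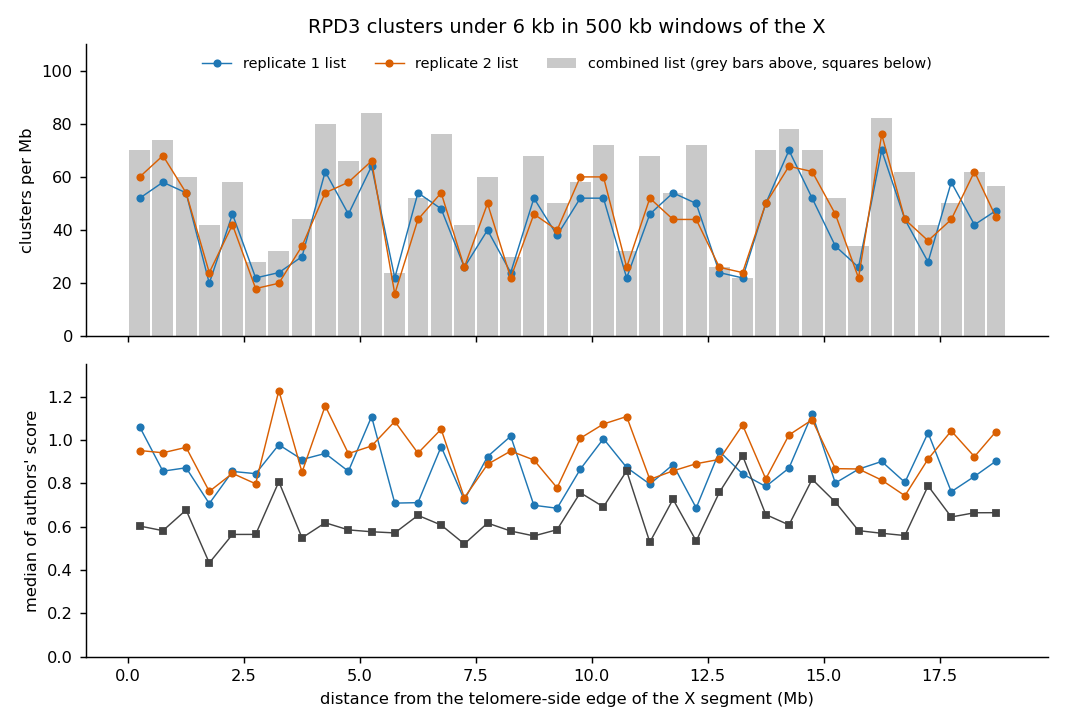
X clusters per Mb (top) and their median score (bottom) in 38 consecutive windows of 500 kb, the last of 422827 bp, against the distance from the telomere-side edge in Mb. Bars and squares show the combined list, and dots show replicates 1 and 2. The troughs of all 3 lists fall in the same windows, while the median scores follow each other less closely.

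Median width and score varied less along the arm than density, and less constantly between replicates. The window median of width ran from 1561 to 2875 bp and that of score from 0.43 to 0.93. Between the replicates, Spearman's rho over windows was 0.459 for median score and 0.283 for median width. The lowest median score, 0.43, was that of 3000001 to 3500000, where 11 of 21 X clusters had no counterpart in either replicate and 6 recurred in both (28.6%). The next lowest, 0.52, was that of 8500001 to 9000000. Both ranked low in the replicates too, at 34 and 31 of the 37 windows in replicate 1 and at 35 and 37 in replicate 2. The highest medians were 0.93 for 14500001 to 15000000, from 11 clusters, and 0.86 for 12000001 to 12500000, from 16. They ranked 24 and 15 in replicate 1 and 7 and 3 in replicate 2, so these high values were not common to both replicates. Cluster number and median score were nearly unrelated over windows, with a rho of -0.162 in the combined list, 0.162 in replicate 1 and 0.179 in replicate 2.

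The X segment was set beside 2L, 3L and 3R, cut by the same distances from telomere and centromere, and beside 2R. No test of these differences was made, since all values come from the same 2 samples, and nothing here is called particular to the X. Clusters narrower than 6000 bp were about as dense on the X (55.3 per Mb) as on 2L (53.0), 3L (56.4) and 3R (55.2), and 2R had 67.5. The X median gap of 4767 bp was 0.928 times that of 2L, 3L and 3R together. In replicate 1 the ratio was 0.845 and in replicate 2 it was 0.884, so the direction was the same. By arm, the combined median gap was 5040 bp on 2L, 5473 bp on 3L and 4795 bp on 3R, so the X was close to 3R. In replicate 2 the X had 6117 bp and 3R had 6278 bp, and in replicate 1 they had 5469 and 6054 bp. The median gap of 2R was shorter in the combined list, at 3933 bp, and longer than on the X in each replicate, at 5542 and 6528 bp.

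At the same time, more of the X lay in deserts. The share was 11.9% in the combined list, against 9.26% on 2L, 9.82% on 3L, 9.66% on 3R and 7.84% on 2R. In replicate 1 it was 23.9% on the X and 15.1% to 21.6% on the other arms, and in replicate 2 it was 20.2% and 12.6% to 18.4%. The SD of the gaps relative to their mean was also highest on the X in each list, at 1.76, 1.85 and 1.69. The highest value of another arm was 1.74 on 2R in the combined list, 1.70 on 2R in replicate 1 and 1.63 on 2R in replicate 2. Gaps on the X were thus the most uneven of the 5 arms, by margins that were small in the combined list and replicate 2.

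**Figure D5:**
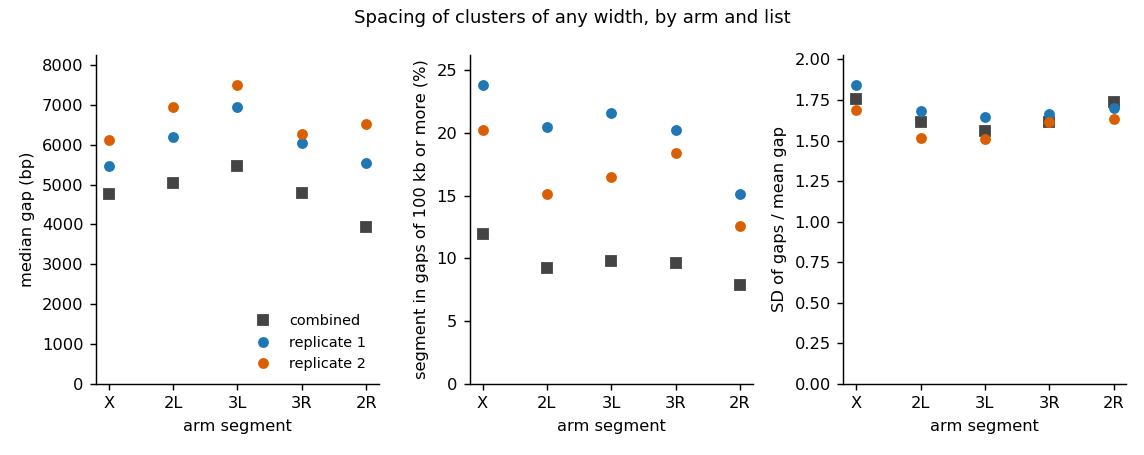
Median gap in bp, percent of the segment in gaps of 100 kb or more, and SD of gaps over mean gap, for 5 arm segments in the combined list (squares) and replicates 1 and 2 (dots). The X has the highest share in deserts in each list, at 11.9%, 23.9% and 20.2%.

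The score of X clusters exceeded that of 2L, 3L and 3R clusters at every width of the combined list. From 1000 to 1249 bp the medians were 0.46 and 0.36, from 2000 to 2249 bp they were 0.54 and 0.45, and from 5000 to 5999 bp they were 1.18 and 0.99. The same held on both sides of 2000 bp in each replicate. Below it, the X median was 0.58 in replicates 1 and 2, and the highest of the 3 autosomal arms was 0.46 and 0.44. At or above it, the X had 1.02 and 1.07, and the highest of those arms had 0.90 and 0.97. Recurrence had no such offset on either side of 2000 bp. Of the narrow X clusters 4.75% were found in both replicates, against 6.03% to 7.32% on 2L, 3L and 3R. At 2000 bp or wider the share was 86.7% on the X, within the 85.1% to 88.4% of those arms. A scaling of the X between ChIP and input and a higher level of RPD3 on it cannot be told apart with these lists.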

How the data were processed

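RPD3 ChIP-seq was analysed from 3 cluster lists, 1 for each of 2 ChIP replicates and 1 combined list. Reads were aligned with Bowtie 0.12.7, per the submitters' processing notes. Positions are on FlyBase release 5, per the file headers. Not given in the sources used here are the cluster caller, its threshold, library depths and the making of the combined list. No counting error of reads can therefore be stated. The deposited score of each cluster is the authors'. Its scale was read as log2 from the values. Median scores of different lists are given side by side, and the sources do not say whether the lists share a scale. The 1 region named as depleted was dropped.

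Clusters were taken by the rule given above, counted as shared at an overlap of 1 bp or more, and placed in 500 kb windows by midpoint. Shares carry 95% exact intervals. Members, definitions and arms compared were chosen with earlier results of these data known. Clusters named are the 5 highest- and 3 lowest-scoring in both replicates, those nearest the width limit, and the extreme deserts, blocks and windows. Inputs have no list of their own and were not analysed here. Functions were tested on simulated lists. Python 3.11.15, numpy 2.4.6 and scipy 1.17.1 were used. Alternatives covered overlap, width limit, joining, score, window, block and desert limits, and each replicate alone.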

Additional observations from a re-analysis of the deposited data

How the results depend on the processing

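Settings that use only clusters of 2000 bp or wider, or only those of 1301 bp or wider (the narrowest replicate cluster), were chosen after seeing the data. The number of X clusters stayed within 1.5 times 1047 under all 6 alternatives run for it. The share overlapping both replicates was unchanged at an overlap of 50% of the shorter cluster, and rose to 95.6% in the better-scoring 50%, 60.6% without a width limit, 67.8% at 1301 bp or wider and 86.7% at 2000 bp or wider. With 1 replicate required it was 69.1% to 69.5%, which follows from the weaker requirement. The median gap was 6016 bp for clusters under 6000 bp, 9345 bp in the better-scoring 50%, 5964 bp after joining clusters under 500 bp apart, 5740 bp at 1301 bp or wider, 6460 bp at 2000 bp or wider and 5469 to 6117 bp in the replicates. Deserts numbered 76 at 50 kb, 3 at 150 kb, 43 in the better-scoring 50%, 33 at 2000 bp or wider and 26 to 29 in the replicates. Blocks numbered 30 under 6000 bp, 7 in the better-scoring 50%, 29 after joining, 25 with gaps under 3 kb, 71 with gaps under 8 kb, 78 with 4 clusters, 6 with 8 clusters, 31 at 1301 bp or wider, 13 at 2000 bp or wider and 23 to 27 in the replicates. Fewer clusters widen gaps and break up blocks by construction.

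The ratio of the densest to the sparsest window, 3.82, became 1.95 in 1 Mb windows and 6.71 in windows moved by 250 kb, and was 3.5 to 4.75 in the replicates, so it depends on where windows start. Median width was 3111 bp in members of both replicates, 2521 bp without a width limit and 2467 to 2635 bp in the replicates. Median score was 0.94, 0.66 and 0.87 to 0.92 there, and 0.89 at 2000 bp or wider. The X gap ratio to 2L, 3L and 3R stayed below 1 in every alternative run, at 0.795 in the better-scoring 50%, 0.833 at 2000 bp or wider and 0.845 to 0.884 in the replicates. The rho of replicate window numbers was 0.908 in 1 Mb windows, 0.910 in 250 kb windows and 0.884 by covered length. Other causes of these shifts were not tested. No paired analysis was possible because no input has a list here and both ChIP samples belong to 1 group. The effect of depth is unknown, as the lists hold no read counts.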

Other observations

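The highest score of all X clusters belonged to one of the narrowest. It lay from 13999380 to 14000380, was 1001 bp wide, scored 2.95 and overlapped no cluster of either replicate. Raised as a power of 2, its score was 9 times the step between the 2 highest scores of the combined list. The 5 highest scores, this one included, were whole multiples of that step to within 2.8e-07, and other scores were not examined. The neighbours of this cluster lay 19895 and 92839 bp away. Among the 193 X clusters found in neither replicate, the next highest score was 1.43, that of a cluster of 1167 bp at the right edge of the third longest desert. The middle 80% of these 193 scored from 0.34 to 0.53.

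The replicate 2 list had many X clusters of nearly the same width. From 2000 to 2249 bp it held 166 of 838 (19.8%), where replicate 1 held 92 of 809 (11.4%) and the combined list held 92 of 1047 (8.79%). In the combined list, 1 pair of X clusters overlapped, by the base at 17589058. The left cluster, of 2615 bp, had no counterpart in either replicate, and the right one, of 1837 bp, had one in both.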
